A study of Mus musculus with 18 samples.

Results

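The DNA replication and S-phase genes are 42 genes chosen by name: the 6 subunits of the MCM2-7 helicase, the factors that load and activate it, the primase, polymerase, clamp and ligation proteins of the replication fork, the enzymes that supply nucleotides, proteins that copy chromatin, and the G1/S regulators that switch these genes on. All 42 had values in the E17 table of 32532 gene symbols and in the P5 table of 19450, and 5 of them (Mcm3, Mcm6, Prim1, Prim2 and Rpa1) were among the 4841 symbols of the P0 table, which covers chromosomes 1 and 10 and a stretch of chromosome 11. Their RNA was compared between genotypes within each stage.

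The study measured total RNA depleted of ribosomal RNA in mouse molar epithelium that dispase had separated from the mesenchyme of the tooth germ. The 6 groups were double-knockout (DKO) mice, labelled Hmgn1-/-; Hmgn2-/-, and wild-type (WT) mice at embryonic day 17 (E17), at birth (P0) and at postnatal day 5 (P5), with 3 libraries in each. HMGN1 and HMGN2 are proteins that bind nucleosomes. The labels name neither the strain nor the cells in which the genes were deleted, and whether each library is a separate animal is not said. The p-values cover only how far these samples spread, and that spread may be technical.

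Replication starts when the origin recognition complex and its partners load MCM2-7 helicases onto DNA in G1; kinases and accessory factors then turn the loaded helicase into the active CMG complex of CDC45, MCM2-7 and GINS. Primase and the polymerases copy the opened strands, while PCNA, the sliding clamp, and RFC, which loads it, keep the polymerases on DNA. In cells that enter the cycle, E2F transcription factors raise most of these genes together, and in the tooth the epithelial cells stop dividing as they mature into ameloblasts, the cells that secrete enamel.

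Hmgn2 RNA matched the labels at E17 and P5, and Hmgn1 RNA went against them in part; DKO stands here for the libraries so labelled. Hmgn2 was at 0.839 to 0.975 RPKM (reads scaled to transcript length and to the mapped reads of the library) in DKO against 320 to 354 in WT libraries at E17, and at 5.44 to 10.4 against 166 to 183 at P5. Hmgn1 was lower but still present, at 70.6% of the WT mean at E17 and 38.6% at P5, with 86.2 to 92.9 RPKM in DKO against 123 to 133 in WT libraries at E17 and 69.8 to 72.6 against 179 to 190 at P5. Which part of Hmgn1 was deleted is not given in the sources used here, and neither gene is in the P0 table. Depth per library, as alignments in the file headers, ranged at E17 between 65953495 and 99967427, at P0 between 74845352 and 108920337 and at P5 between 39209676 and 72660832. All 10 dental epithelium markers listed were detected at E17 and P5, and mesenchymal genes were detected as well: Col1a1 averaged 896 ± 119 RPKM in DKO and 1980 ± 135 in WT libraries at E17 (SD, n = 3 each). Transcripts at P5 follow another annotation than those at E17 and P0, and the P0 table is partial. No level is compared between stages.

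As deposited, the summed RNA of the replication genes was higher in DKO than in WT libraries before birth, and lower at birth and after it. Summed over the 42 genes, RNA at E17 was 1030, 1115 and 1089 RPKM in DKO libraries, against 827.1, 850.8 and 798.5 RPKM in WT libraries. At P5 the sum was 172.1, 171.4 and 175 RPKM in DKO libraries, against 280.9, 263.5 and 254.7 RPKM in WT libraries. At P0 the 5 genes present summed to 115.6, 99.94 and 110.9 RPKM in DKO libraries and to 146.4, 140.1 and 160.5 RPKM in WT libraries. DKO libraries were all above WT libraries at E17 and all below them at P0 and P5. In bulk tissue, fewer cells in S phase and less of this RNA per cell cannot be told apart.

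Much of the E17 difference and part of the P5 difference was shared by all genes. The median log2 fold change of DKO against WT over all genes tested, on the log2(RPKM + 1) scale, was 0.25 at E17 and -0.25 at P5 as deposited, and -0.004 and -0.06 once libraries had been brought to a common 75th percentile of the genes tested. After that scaling the 42 genes summed to 987.1, 975.7 and 958.3 in DKO against 902.2, 936.4 and 900.1 in WT libraries at E17, and to 186.2, 186.9 and 187.3 in DKO against 248.2, 246.7 and 243.5 in WT libraries at P5. The groups stayed apart at both stages, with a narrower gap at both than as deposited. At E17 the lowest DKO sum, 958.3, lay close to the highest WT sum, 936.4. The median of the replication genes tested was 0.34 at E17 and -0.50 at P5 as deposited, and 0.07 and -0.33 after scaling. A gene is said to have risen or fallen only where limma's adjusted p was under 0.05 on both scales in the same direction, and log2 fold changes below are after scaling unless said otherwise; because 1 is added to each value, they understate the change of genes at low levels.

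**Figure D1:**
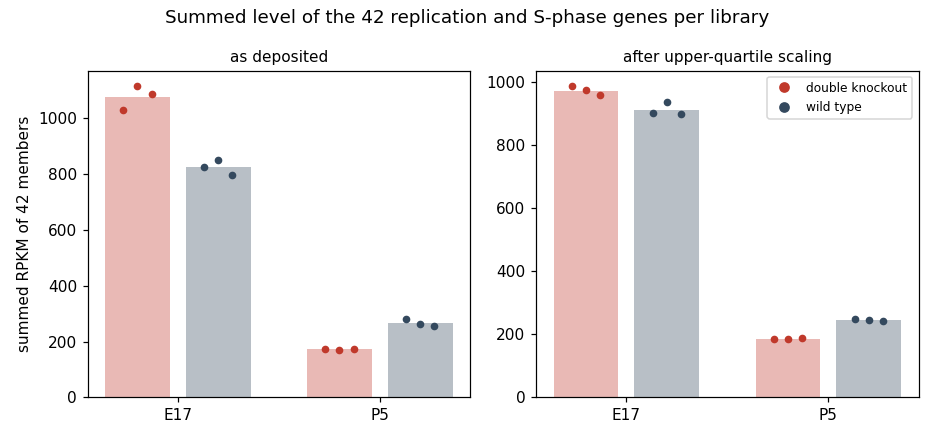
Summed RPKM of the 42 genes in each library (points; bars are group means) at E17 and P5, as deposited (left) and after upper-quartile scaling (right), with DKO left of WT. The 3 DKO points lie above the 3 WT points at E17 and below them at P5 on both scales.

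At E17, 5 of 42 genes rose (Mcm5, Gins1, Fen1, Rrm1 and Tyms) and 0 fell, where 6.61% of the 13728 genes tested rose and 3.07% fell. As deposited alone 39 of 42 were higher in DKO, beside 56.3% of all genes. At an unadjusted limma p under 0.05 on both scales 12 were higher and 0 lower. The share of all genes at an unadjusted p was not counted, here or below, so such counts have no background beside them. Without regard to p, DKO libraries were all above WT libraries for 39 of 42 genes as deposited (60.9% of all genes), and after scaling all above for 15 (18.0%) and all below for 2 (19.3%). The median of the 42 log2 fold changes was 0.07. At P0, 4 of the 5 genes present fell, where 22.8% of 2062 genes fell, and 0 rose, at an unadjusted p under 0.05 as well; groups were apart, with DKO lower, in the same 4 (29.3% of all genes as deposited and 31.9% scaled). At P5, 24 of the 38 genes above the filter fell, where 30.8% of 11423 genes fell, and 0 rose, where 7.35% did; at an unadjusted p under 0.05, 26 were lower and 0 higher. As deposited alone 33 were lower, beside 58.2% of all genes. DKO libraries were all below WT libraries for 35 of the 38 as deposited (61.8% of all genes) and for 24 after scaling (35.8%), and all above for 1, Ccne2, after scaling (23.2%). The median of the 38 was -0.33, and that of all genes -0.06. Of the 24, Cdc45, Gins3 and E2f2 were below 1 RPKM in all 3 DKO libraries and entered the test only through the WT libraries, where they were higher, so they had to differ. Without these 3 genes, 21 of 35 fell, with a median of -0.30. Orc1, Cdc6, Mcm10 and Ccne1 were below 1 RPKM in too many P5 libraries to be tested. The E17 calls rested on single libraries: 4 genes rose without WT replicate 1 and 4 without WT replicate 2, but 2 without DKO replicate 1, 2 without DKO replicate 2, 1 without DKO replicate 3 and 0 without WT replicate 3. The 4 without WT replicate 1 included Pcna, which had not passed with all libraries, and left out Mcm5 and Rrm1.

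**Figure D2:**
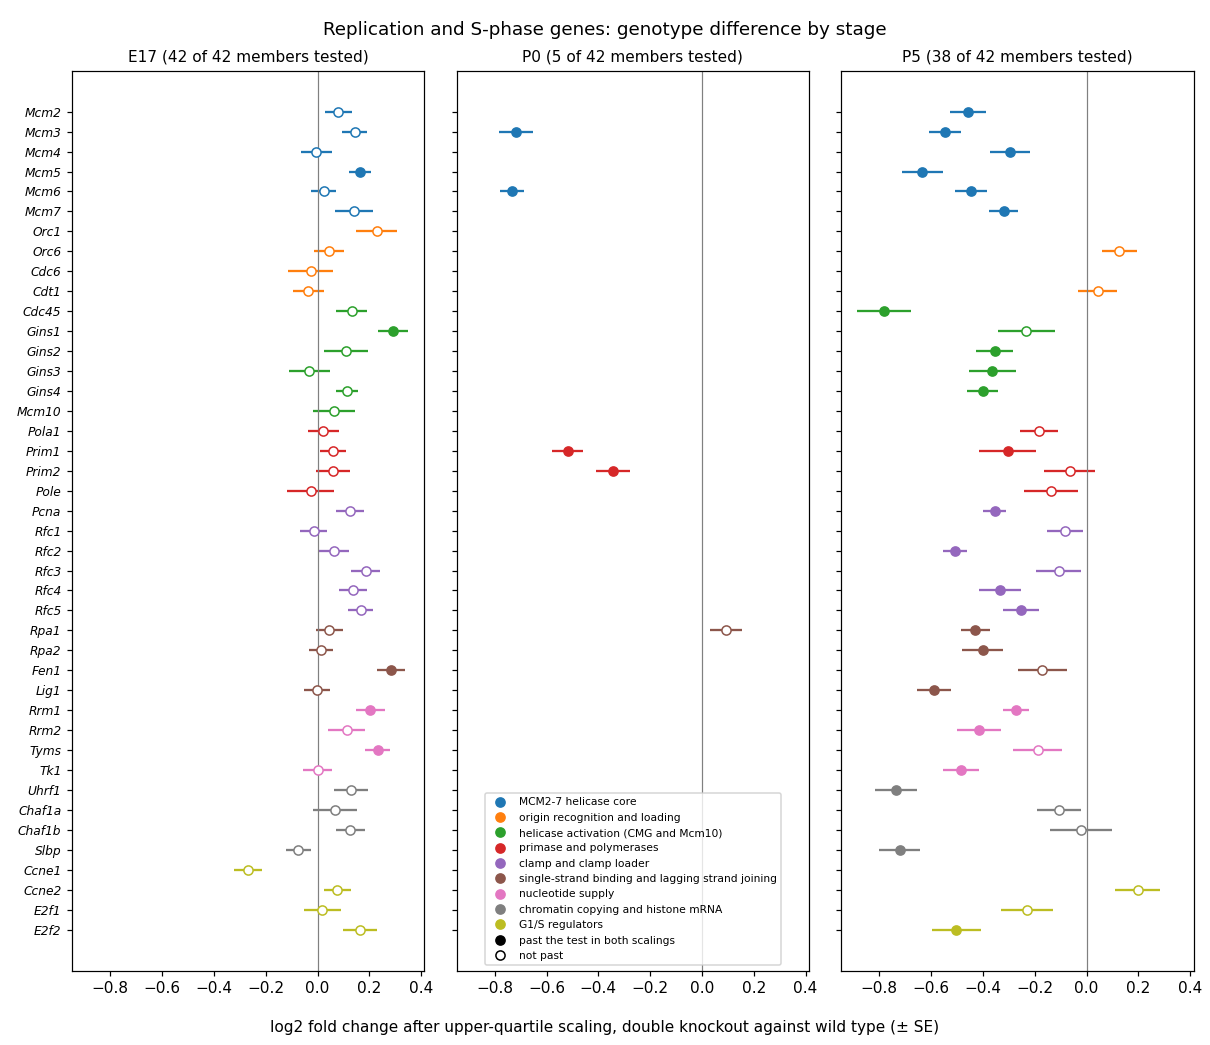
Log2 fold change (DKO against WT, after upper-quartile scaling, ± SE) of each replication gene at E17, P0 and P5, coloured by role; filled points passed the test on both scales. Of the genes tested, 5 of 42 passed at E17, to the right of 0, and 4 of 5 at P0 and 24 of 38 at P5, to the left of 0.

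The MCM2-7 subunits, which form the ring that unwinds DNA, all fell at P5. Mcm5 had 2.48, 2.51 and 2.84 RPKM in DKO libraries against 6.09, 4.73 and 5.22 in WT libraries, the largest fall of the 6 at -0.63 ± 0.08 (log2 fold change ± SE, limma adjusted p = 0.000277). Mcm3 had 2.19, 2.23 and 2.14 RPKM in DKO against 4.34, 4.34 and 4.01 in WT libraries (-0.54 ± 0.06, adjusted p = 0.000177). In both genes every DKO library was below every WT library, as in the other 4. Mcm2 had 3.61, 3.28 and 3.33 RPKM in DKO against 6.24, 5.33 and 6.03 in WT libraries (-0.46 ± 0.07, adjusted p = 0.000792). Mcm6 had 5.19, 5.42 and 5.2 RPKM in DKO against 9.72, 8.05 and 8.67 in WT libraries (-0.45 ± 0.06, adjusted p = 0.000529). The log2 fold changes of Mcm2 and Mcm6 were nearly equal, and those of the remaining pair lay nearer to 0. Mcm7 had 9.37, 8.2 and 8.88 RPKM in DKO against 13.6, 13.2 and 12.6 in WT libraries (-0.32 ± 0.06, adjusted p = 0.00179). Mcm4 had 2.75, 2.25 and 2.26 RPKM in DKO against 3.79, 3.64 and 3.69 in WT libraries (-0.29 ± 0.08, adjusted p = 0.0113).

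At P0 both subunits present fell. Mcm6 had 30.1, 27.4 and 30.3 RPKM in DKO libraries against 49.9, 47.2 and 53 in WT libraries (-0.73 ± 0.05, adjusted p = 1.34e-05), and Mcm3 had 17.9, 15.3 and 17.7 RPKM in DKO against 27.3, 28.7 and 30.9 in WT libraries (-0.72 ± 0.07, adjusted p = 7.41e-05). At E17 Mcm5 rose, with 38.8, 43.1 and 40.3 RPKM in DKO libraries against 29.8, 30.1 and 28.8 in WT libraries (0.17 ± 0.04, adjusted p = 0.0428). Mcm6 at E17 had 48.7, 50.7 and 49.4 RPKM in DKO against 40, 41.6 and 38 in WT libraries; these did not overlap as deposited, but after scaling they did (0.02 ± 0.05, adjusted p = 0.765). The other 4 subunits had log2 fold changes of -0.004 to 0.14 at E17 and none passed. For Mcm5 at E17 the call was lost when any 1 of the 6 libraries was left out, while the log2 fold change stayed at 0.15 to 0.19.

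**Figure D3:**
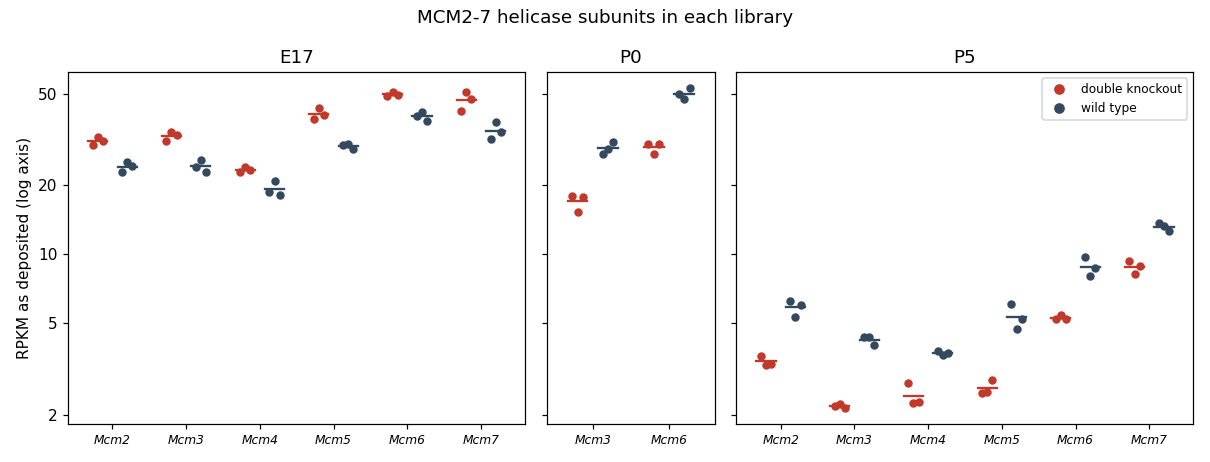
RPKM as deposited (log axis) of the MCM2-7 subunits in each library, DKO left of WT; lines are group means. DKO libraries lie above WT libraries for all 6 subunits at E17, and below them for Mcm3 and Mcm6 at P0 and for all 6 at P5.

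The make-up of the MCM2-7 RNA, a ratio within a library that no scaling of libraries alters, differed between genotypes as well. At P5 Mcm5 made up 9.69, 10.5 and 11.5% of the summed RPKM of the 6 subunits in DKO libraries, against 13.9, 12 and 13% in WT libraries, and Mcm7 made up 36.6, 34.3 and 36% in DKO against 31, 33.6 and 31.4% in WT libraries. Mcm3 also took a smaller share in every DKO library than in any WT library at P5, at 8.56, 9.35 and 8.69% against 9.93, 11 and 9.98%. At E17 the shares of Mcm3 and Mcm5 lay the other way round. Mcm3 was at 14.6, 14.5 and 14.7% in DKO against 14.3, 14.1 and 13.8% in WT libraries, and Mcm5 at 18.2, 18.3 and 17.9% in DKO against 17.9, 16.6 and 17.4% in WT libraries, groups that met at 17.9% after rounding. Mcm4 was lower there, at 10.7, 10.2 and 10.4% in DKO against 11.2, 11.5 and 10.9% in WT libraries. The exons of Mcm7 overlap those of Ap4m1 on the opposite strand over 7.25% of their length, and whether reads were counted by strand is not given in the sources used here.

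The promoters of 34 of the 42 genes were matched in RefSeq (build GRCm38.p6), as 40 windows from 250 bases before to 50 after a start. The stretches of 160 bases before the start are shown for Mcm6 and Mcm5, which fell at P5, for Pola1, which did not pass there, and for Tyms, which rose at E17. Capitals mark the E2F words searched, TTTCGCGC, TTTGGCGC, TTTCCCGC and TTTGCCGC on either strand; the stretches lie at chr1:128359706-128359865 (minus strand, Mcm6), chr8:75109349-75109508 (plus strand, Mcm5) and chrX:93632156-93632315 (minus strand, Pola1) and chr5:30073626-30073785 (minus strand, Tyms) and are written 5' to 3' along the gene.
Mcm6: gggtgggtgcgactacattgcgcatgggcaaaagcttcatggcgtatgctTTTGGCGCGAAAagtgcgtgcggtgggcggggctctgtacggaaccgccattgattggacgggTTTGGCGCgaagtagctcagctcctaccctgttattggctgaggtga
Mcm5: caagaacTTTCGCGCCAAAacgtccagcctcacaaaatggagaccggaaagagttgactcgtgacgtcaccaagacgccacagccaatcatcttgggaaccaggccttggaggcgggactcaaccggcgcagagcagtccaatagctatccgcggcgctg
Pola1: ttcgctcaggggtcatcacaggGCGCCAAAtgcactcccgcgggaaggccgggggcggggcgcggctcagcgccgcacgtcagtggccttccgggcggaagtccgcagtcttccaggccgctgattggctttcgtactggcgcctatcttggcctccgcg
Tyms: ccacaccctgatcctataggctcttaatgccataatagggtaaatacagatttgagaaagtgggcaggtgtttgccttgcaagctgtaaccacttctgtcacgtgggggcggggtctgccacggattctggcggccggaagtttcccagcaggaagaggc
In Mcm6, TTTGGCGC from -110 to -103 overlaps TTTCGCGC on the other strand from -106 to -99, and TTTGGCGC recurs from -47 to -40, counted back from the start at -1. In Mcm5, TTTCGCGC from -153 to -146 overlaps TTTGGCGC on the other strand from -149 to -142. In Pola1, TTTGGCGC lies on the other strand from -138 to -131, and the Tyms window holds none of the words. One of the words was in 13 of the 40 windows (32.5%), against 2.26% of all 32851 windows of that length, and CCAAT on either strand in 26 (65.0%) against 37.4%. By outcome at P5, 8 of the 20 matched genes that fell held an E2F word, as did 3 of the 10 matched genes that were tested and did not pass. These are matches of letters in a window, not sites.

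None of the origin recognition and loading genes passed at E17 or P5. Orc6, a subunit of the origin recognition complex, had 6.59, 6.03 and 6.36 RPKM in DKO against 6.41, 6.62 and 7.03 in WT libraries at P5 (0.13 ± 0.07, adjusted p = 0.154), and Cdt1, which brings MCM2-7 to origins, had 2.71, 2.22 and 2.52 RPKM in DKO against 2.77, 2.72 and 2.85 in WT libraries (0.04 ± 0.07, adjusted p = 0.659). Both lay above 0 after scaling and below it as deposited, at -0.07 and -0.12. Cdc6, which works with Cdt1, was low at P5, at 0.209, 0.167 and 0.224 RPKM in DKO and 0.439, 0.625 and 0.439 in WT libraries, and Orc1 lower still, so neither was tested. At E17 the log2 fold changes of the 4 genes ran from -0.04 (Cdt1) to 0.23 (Orc1, adjusted p = 0.0956).

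Of the genes that turn the loaded helicase into CMG, 4 of the 5 tested fell at P5. Cdc45 had 0.646, 0.331 and 0.63 RPKM in DKO libraries against 2.12, 1.67 and 1.75 in WT libraries, and its log2 fold change of -0.78 ± 0.10 (adjusted p = 0.000405) was the lowest of the 38 genes. It is 1 of the 3 genes that entered through WT libraries only; with no filter on low values its adjusted p was 0.00357. Gins4 had 7.5, 7.88 and 8.36 RPKM in DKO against 13.7, 12.7 and 11.4 in WT libraries (-0.40 ± 0.06, adjusted p = 0.000785). The GINS complex has 4 subunits, and Gins2 and Gins3 fell with Gins4 while Gins1 did not pass. Gins2 had 4.92, 4.29 and 5.35 RPKM in DKO against 7.62, 7.53 and 7.45 in WT libraries (-0.35 ± 0.07, adjusted p = 0.00352). Gins3 had 0.784, 0.911 and 0.777 RPKM in DKO against 1.78, 1.66 and 1.24 in WT libraries (-0.36 ± 0.09, adjusted p = 0.00919), and it too entered through WT libraries only (0.023 for the adjusted p with no filter). Exons of Gins2 overlap those of Gse1 on the opposite strand over 67.3% of their length, so reads of the 2 genes may not be told apart. The same limit holds in part for members of other roles. Exons on the opposite strand overlap 52.5% of Chaf1a (Ubxn6), 17.4% of Ccne2 (Ints8) and 15.1% of Rfc2 (Lat2). They overlap 12.7% of Rfc4 (Eif4a2), 10.8% of Orc1 (Gm12743) and 10.7% of Rfc5 (Wsb2). Gins1 had 1.35, 1.48 and 1.46 RPKM in DKO against 2.81, 2.15 and 1.62 in WT libraries at P5 (-0.23 ± 0.11, adjusted p = 0.109); without WT replicate 3 it passed, at -0.35. At E17 Gins1 rose, with 15, 18 and 17.4 RPKM in DKO libraries against 10.6, 11.7 and 10.7 in WT libraries (0.29 ± 0.06, adjusted p = 0.0181). That was the highest log2 fold change among the 42 genes, and it was lost without DKO replicate 2, DKO replicate 3 or WT replicate 3, at 0.26 to 0.29. The other 5 genes of this role, Mcm10 included, lay between -0.03 and 0.13 at E17.

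Primase starts each new strand with a short RNA, and both of its subunits, Prim1 and Prim2, fell at P0, while at P5 Prim1 fell and Prim2 did not pass. At P0 Prim1 had 14.3, 12.4 and 13.4 RPKM in DKO against 19.2, 18.5 and 22.1 in WT libraries (-0.52 ± 0.06, adjusted p = 0.00028), and Prim2 had 9.37, 8.14 and 9.04 RPKM in DKO against 11.7, 10.3 and 13.2 in WT libraries (-0.34 ± 0.07, adjusted p = 0.00359). Neither gene's groups overlapped. At P5 Prim1 had 2.82, 3.29 and 2.7 RPKM in DKO against 4.03, 5.36 and 4.14 in WT libraries (-0.30 ± 0.11, adjusted p = 0.0445). Its groups overlapped after scaling, and the call was lost without DKO replicate 1, DKO replicate 3, WT replicate 2 or WT replicate 3, at -0.33 to -0.19. Prim2 at P5 had 2.95, 3.43 and 3.5 RPKM in DKO against 3.59, 4.11 and 4.54 in WT libraries (-0.07 ± 0.10, adjusted p = 0.609). Pola1, the catalytic subunit of the polymerase that extends the primer, and Pole, that of the leading-strand polymerase, were at -0.18 and -0.14 and did not pass. At E17 these 4 genes lay between -0.03 and 0.06.

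Among the clamp and its loader, Pcna and 3 of the 5 RFC subunits fell at P5. Pcna, the most abundant of the 42 genes per length in every library of that stage, had 28.1, 26.8 and 27.3 RPKM in DKO against 42.3, 41.8 and 39.6 in WT libraries (-0.35 ± 0.04, adjusted p = 0.000276). Rfc2 had 12.3, 12.6 and 12.5 RPKM in DKO against 21.8, 20.7 and 21 in WT libraries (-0.51 ± 0.05), with the smallest adjusted p of the 38 genes, 6.4e-05. Rfc4 had 3.18, 3.08 and 2.98 RPKM in DKO against 5.04, 4.22 and 5.27 in WT libraries (-0.33 ± 0.08, adjusted p = 0.00829). The RFC subunits form 1 complex, and their log2 fold changes ran from -0.51 to -0.08. Rfc5 had 3.46, 3.47 and 4.07 RPKM in DKO against 5.88, 5.03 and 5.03 in WT libraries (-0.25 ± 0.07, adjusted p = 0.0163), a call lost without DKO replicate 1, DKO replicate 2 or WT replicate 1, at -0.23 to -0.22. Rfc1 and Rfc3 were at -0.08 and -0.11 and did not pass. At E17 the 6 genes lay between -0.01 (Rfc1) and 0.19 (Rfc3) and none passed.

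Of the proteins that coat single-stranded DNA and join the lagging strand, Rpa1, Rpa2 and Lig1 fell at P5 and Fen1 rose at E17. Lig1, the ligase that seals Okazaki fragments, had 2.73, 3.01 and 3.01 RPKM in DKO libraries against 5.91, 5.9 and 5.21 in WT libraries at P5 (-0.59 ± 0.07, adjusted p = 0.000163). Rpa1, the largest subunit of the single-strand binding protein RPA, had 8.7, 9.63 and 9.25 RPKM in DKO against 15.9, 14.8 and 13.9 in WT libraries (-0.43 ± 0.06, adjusted p = 0.000383). Rpa2, its partner, had 4.79, 3.93 and 5.09 RPKM in DKO against 8.09, 7.17 and 7.04 in WT libraries (-0.40 ± 0.08, adjusted p = 0.00331). None of these 3 genes overlapped between genotypes at P5. At P0, however, Rpa1 had 43.9, 36.7 and 40.5 RPKM in DKO against 38.4, 35.5 and 41.3 in WT libraries, overlapping groups that differed by 0.09 ± 0.06 (adjusted p = 0.268). Fen1, the nuclease that trims Okazaki fragments, had 18.9, 19.3 and 18.6 RPKM in DKO against 12.7, 13 and 12 in WT libraries at E17 (0.28 ± 0.05, adjusted p = 0.0141). The Fen1 call was lost without WT replicate 3, at 0.27, and 78.8% of the gene's exons overlap the antisense gene Gm10143. At P5 Fen1 had 4.2, 5.12 and 5.63 RPKM in DKO against 7.52, 6.44 and 6.07 in WT libraries and did not pass (-0.17 ± 0.09, adjusted p = 0.156).

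The enzymes of nucleotide supply gave 2 of the 5 genes that rose at E17. Tyms, which makes thymidylate, had 35.1, 37.3 and 39.2 RPKM in DKO libraries against 26.6, 26.6 and 24.1 in WT libraries at E17 (0.23 ± 0.05, adjusted p = 0.0204), and Rrm1, the large subunit of ribonucleotide reductase, had 43.3, 46.2 and 46.8 RPKM in DKO against 31.3, 34.7 and 30.4 in WT libraries (0.20 ± 0.05, adjusted p = 0.045). The groups were apart in both genes. The Tyms call was lost without DKO replicate 1, DKO replicate 3 or WT replicate 3, at 0.20 to 0.23, and that of Rrm1 without any single library other than WT replicate 2, at 0.18 to 0.21. At P5 Rrm1 fell, with 7.77, 7.76 and 7.95 RPKM in DKO against 11.8, 10.9 and 11.2 in WT libraries (-0.27 ± 0.05, adjusted p = 0.0019). Rrm2, the small subunit, whose RNA is highest in S phase, had 2.8, 2.83 and 2.8 RPKM in DKO against 5.8, 4.49 and 4.09 in WT libraries (-0.41 ± 0.09, adjusted p = 0.0039). Both subunits were lower in every DKO library. Tk1, which salvages thymidine, had 2.93, 3.04 and 3.26 RPKM in DKO against 5.53, 5.87 and 4.99 in WT libraries at P5 (-0.48 ± 0.07, adjusted p = 0.000594). Tyms at P5 had 1.64, 2.24 and 1.82 RPKM in DKO against 2.68, 2.9 and 2.43 in WT libraries and did not pass (-0.19 ± 0.09, adjusted p = 0.126), but passed without DKO replicate 2, at -0.28.

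Among the proteins that copy chromatin, Uhrf1 and Slbp had the next largest falls at P5 after Cdc45. Uhrf1, which brings the maintenance DNA methyltransferase to new DNA, had 1.85, 1.63 and 2.07 RPKM in DKO libraries against 4.18, 4.22 and 4.51 in WT libraries (-0.73 ± 0.08, adjusted p = 0.00015). Slbp, which binds the stem-loop of replication-dependent histone mRNA, had 5.02, 5.06 and 4.28 RPKM in DKO against 9.69, 10.6 and 9.41 in WT libraries (-0.72 ± 0.08, adjusted p = 0.000163). In both, every DKO library was below every WT library. The CAF-1 subunits that place new histones, Chaf1a and Chaf1b, were at -0.11 and -0.02 and did not pass. At E17 the 4 genes lay between -0.07 (Slbp) and 0.13 (Uhrf1).

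Of the G1/S regulators, E2f2 was the 1 of 3 tested that fell at P5, with 0.75, 0.636 and 0.694 RPKM in DKO against 2.05, 1.34 and 1.46 in WT libraries (-0.50 ± 0.10, adjusted p = 0.00257). Like Cdc45, it entered the test through WT libraries only, and with no filter its adjusted p was 0.0105. E2f1, like E2f2 an activating E2F, had 1.43, 1.09 and 1.24 RPKM in DKO against 1.62, 2.08 and 1.99 in WT libraries (-0.23 ± 0.10, adjusted p = 0.0811), and passed without WT replicate 1, at -0.32. Ccne2, an E-type cyclin that drives entry into S phase, lay on the other side, with 1.14, 1.22 and 0.946 RPKM in DKO against 0.888, 1.03 and 1.03 in WT libraries (0.20 ± 0.09, adjusted p = 0.0884). Ccne1, the other E-type cyclin, was level at E17 as deposited, with 10.7, 10.9 and 10.6 RPKM in DKO against 10.6, 10.9 and 10.8 in WT libraries, and was the 1 gene lower after scaling alone, at -0.27 ± 0.05 (adjusted p = 0.0174), where 8.03% of all genes were lower. The other 3 lay between 0.02 and 0.16 at E17.

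The genotype difference itself differed between the stages. For 28 of the 38 genes tested at both E17 and P5, the log2 fold change at P5 was below that at E17 at an adjusted p under 0.05, where 27.5% of the 11049 genes tested at both stages were, and for 0 it was above, where 16.7% were (limma fits, Satterthwaite degrees of freedom); at an unadjusted p the counts were 29 and 0. Among the 28 are Cdc45, Gins3 and E2f2, which entered the P5 test through WT libraries only, so a difference there was built in. Cdc45 had the largest (-0.91 ± 0.12, adjusted p = 4.19e-05). Of the genes not so selected, Uhrf1 (-0.86 ± 0.10, adjusted p = 9.85e-06) and Mcm5 (-0.80 ± 0.09, adjusted p = 1.39e-05) differed most. The median difference was -0.46 for the 38 genes, Cdc45, Gins3 and E2f2 included, and -0.07 for all genes. The 10 genes that did not pass were Orc6, Cdt1, Pola1, Prim2, Pole, Rfc1, Chaf1a, Chaf1b, Ccne2 and E2f1. Leaving out 1 library at a time gave 24 to 29 genes below 0. Between P0 and E17, 4 of 5 genes were below 0 (23.9% of 2011 genes were), 0 were above (20.2% were), and Rpa1 was at 0.04 ± 0.08. Between P5 and P0 Rpa1 differed by -0.52 ± 0.08 (adjusted p = 7.42e-05, limma fits), where 31.2% of 1758 genes were below 0, and Mcm6 by 0.28 ± 0.08 (adjusted p = 0.00559), where 23.4% were above; as deposited Mcm6 differed by 0.11 and did not pass. Each pair of stages compares 12 libraries.

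**Figure D4:**
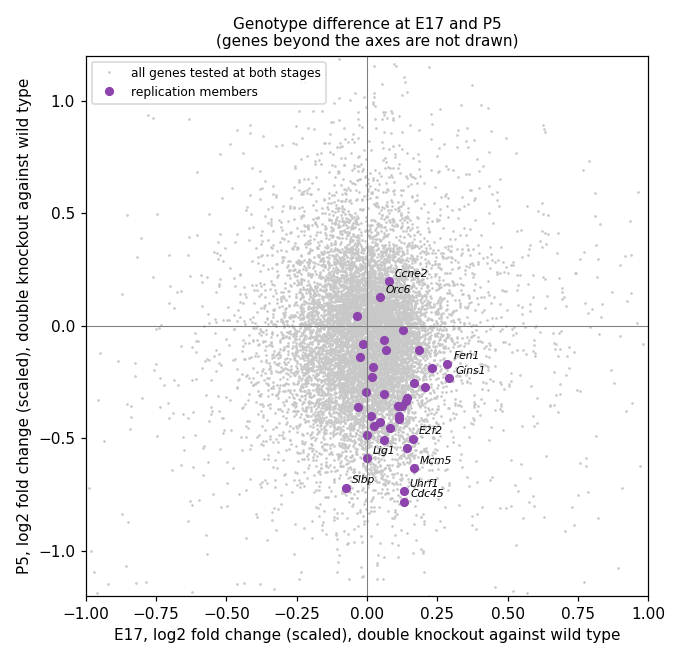
Log2 fold change (DKO against WT, scaled) at E17 (x axis) and P5 (y axis) of all genes tested at both stages (grey) and the 38 replication genes (purple). Most purple points lie right of 0 on the x axis and below 0 on the y axis, with Cdc45, Uhrf1 and Slbp lowest and Ccne2 and Orc6 above 0.

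Other genes of the same pathways, from lists that are not part of the 42, fell in part at P5. Of 65 tested, 38 fell (58.5%), where 30.8% of all genes did. Some of the 38, such as Cdc7 and Skp2 (0.755 ± 0.0794 RPKM in DKO libraries), averaged below 1 RPKM in DKO. They entered the test through WT libraries, where they were higher, so they had to differ. The share without such genes was not counted. Of 11 other origin licensing and firing genes tested at P5, 6 fell and 0 rose, among them Cdc7, the kinase that fires origins (0.672 ± 0.0715 RPKM in DKO and 2.03 ± 0.381 in WT libraries, -0.73, adjusted p = 0.000408), and Gmnn, the inhibitor of Cdt1 (-0.66, adjusted p = 0.00168). At an unadjusted p under 0.05 on both scales that list also had 6 lower and 0 higher, while after scaling alone 2 were higher. Of 18 other polymerase and fork genes 12 fell and 0 rose (13 and 0 unadjusted on both scales, with 1 higher after scaling alone). Top1, which relaxes DNA ahead of the fork, was at -0.64 and Pola2, the partner of Pola1, at -0.63. Of 8 other nucleotide supply genes 4 fell and 0 rose (5 and 0 unadjusted), with Mthfd1, a folate enzyme, at -0.42. Of 10 other replicating chromatin genes 6 fell, with Dnmt1, the maintenance DNA methyltransferase, at -0.48, and 2 rose. Those 2, named after their values were seen, were the chromatin remodeller Hells at 0.65 and the histone chaperone Asf1a at 0.46. Of 18 other G1/S regulators 10 fell and 1 rose. Ccnd1, cyclin D1, was at 8.26 ± 0.642 RPKM in DKO and 22.5 ± 1.71 in WT libraries (-1.14), while the riser, named after its value was seen, was Rb1 at 0.62 (adjusted p = 4.52e-05), the pocket protein that holds E2F in check. At E17, 5 of the 83 genes of these lists rose, a share of 6.02% that is no higher than the 6.61% of all genes, namely Chtf8, Rpa3, Asf1a, Ccnd1 and E2f7, with Ccnd1 highest at 0.77 (44.9 ± 1.98 RPKM in DKO and 21.2 ± 2.03 in WT libraries, adjusted p = 0.00101), and 0 fell on both scales or at an unadjusted p on both.

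The median of the mitotic genes lay further below 0 at P5 than that of the replication genes. All 19 G2/M genes tested at P5 fell, where 30.8% of all genes did, with a median log2 fold change of -0.72. Whether any of the 19 entered the test through WT libraries only was not counted. Cdc20, which triggers anaphase, was at 3 ± 0.0721 RPKM in DKO and 7.17 ± 0.118 in WT libraries (-0.85, adjusted p = 1.98e-05), and Mki67, the proliferation marker, at 2.36 ± 0.091 and 5.85 ± 0.602 RPKM (-0.85, adjusted p = 3.32e-05). Cdk1, at P0, was at 46.5 ± 1.71 RPKM in DKO and 88.8 ± 7.71 in WT libraries (-0.89, adjusted p = 5.08e-06). Within a library, the summed RPKM of the 42 replication genes was 448, 461 and 454% of that of the 20 G2/M genes in DKO libraries at P5, against 296, 308 and 301% in WT libraries, so the groups were well apart in a ratio that needs no scaling. At E17 it was 168, 162 and 164% in DKO against 173, 173 and 173% in WT libraries. There 6 of 20 G2/M genes rose, where 6.61% of all genes did, with a median of 0.16.

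**Figure D5:**
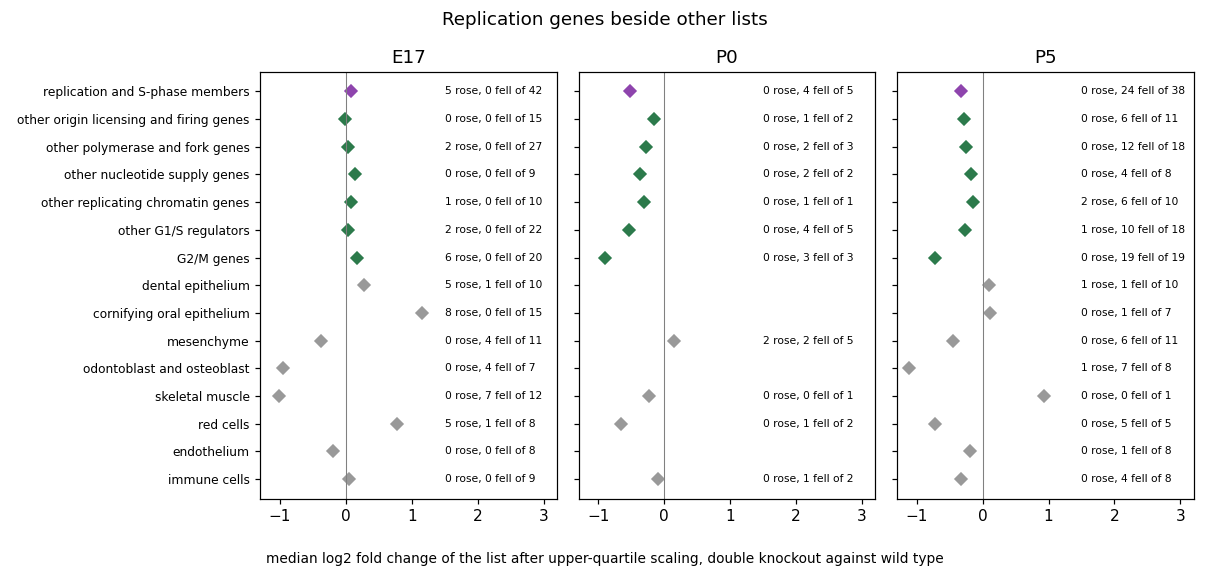
Median log2 fold change (DKO against WT, scaled) of the replication genes (purple), related cell cycle lists (green) and markers of other cell types (grey) at E17, P0 and P5, with the number of genes that rose and fell of those tested. At P5 the replication genes stood at -0.33, with 24 of 38 fallen, and the G2/M genes at -0.72, with 19 of 19.

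Markers of the cells in the tissue moved with genotype as well, and their part in these results was not tested. Beside the counts below, 6.61% of all genes rose and 3.07% fell at E17. At P0 16.7% rose and 22.8% fell, and at P5 7.35% rose and 30.8% fell. The 10 dental epithelium markers summed to 2570 to 2690 RPKM in DKO and 2210 to 2600 in WT libraries at E17, and to 4110 to 4190 and 4120 to 4910 at P5, overlapping at both stages; 5 rose and 1 fell at E17, and 1 rose and 1 fell at P5. As a share of that sum within a library, the replication genes were at 40.1, 42.6 and 40.4% in DKO against 31.8, 38.6 and 33.3% in WT libraries at E17, and at 4.19, 4.11 and 4.18% against 5.72, 6.4 and 5.96% at P5, so both directions held beside the epithelial markers. The 11 mesenchyme markers summed to 2750 to 2940 RPKM in DKO and 4430 to 4820 in WT libraries at E17 (4 fell, 0 rose), and to 895 to 1280 and 2080 to 2270 at P5 (6 of 11 fell, 0 rose). At P0 the 5 mesenchyme markers present summed to 2150 to 3020 RPKM in DKO and 715 to 851 in WT libraries, with Col1a1 and Dcn risen and Col3a1 and Prrx1 fallen. The 9 odontoblast and osteoblast markers were at 174 to 299 RPKM in DKO and 423 to 497 in WT libraries at E17 and at 290 to 327 and 622 to 860 at P5. Red cell markers were higher in DKO at E17, at 10400 to 21300 against 5770 to 7230 RPKM, and lower at P0, where 2 were present, at 883 to 1120 against 1360 to 1500, and at P5, at 517 to 1190 against 1350 to 1480. The E17 sum was carried by Hba-a1, Hba-a2, Hbb-bs and Hbb-bt, which rose, while the embryonic globin gene Hbb-y fell (0.774 ± 0.134 RPKM in DKO and 3.29 ± 0.935 in WT libraries, -1.43, adjusted p = 0.00155). Hbb-y was below 1 RPKM in DKO and entered the test through WT libraries only, so it had to differ. The 9 immune cell markers were at 173 to 191 RPKM in DKO and 140 to 158 in WT libraries at E17 and at 48.1 to 58.6 and 73.9 to 87.7 at P5; the 8 endothelium markers overlapped at E17 (106 to 111 and 98.9 to 115) and were at 45.5 to 60.7 and 62.8 to 67.4 at P5. Cornifying oral epithelium markers overlapped at E17 in sum (2480 to 4970 and 2140 to 3060 RPKM), though 8 of 15 rose, and were at 47.9 to 54 and 55.3 to 66 at P5. Skeletal muscle markers overlapped at each stage in sum, with 7 of 12 fallen at E17. Of the risers, Lce3a, Lce3e and Lce3f averaged 0 to 0.341 RPKM in WT and entered the test through DKO libraries only. Ttn, among the fallen, averaged 0.637 RPKM in DKO and entered through WT libraries only. A difference was built in for these genes. No marker of these lists was at 0 in all 6 libraries of a stage.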

How the data were processed

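Total RNA of 18 libraries was analysed, 3 per group. Per the submitters' processing notes, the authors used Partek and mouse build mm10; for the aligner, annotation and strand setting the sources used here give nothing. The authors deposited 1 value per transcript, taken here as RPKM. The unit is named by no source and was read from the values: 75.2% to 90.6% of the low ones per library are whole multiples of 1 read, within 0.1. The steps put mapped reads, in M per library, at 27.5 to 41.1 (E17), 30.8 to 45.6 (P0) and 16.7 to 30.7 (P5), so that 1 read on 1 kb is 0.0219 to 0.0597 RPKM.

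Transcripts were summed per symbol. A stage's test took genes that reached an RPKM of 1 in 3 or more of its 6 libraries. DKO and WT were compared on log2(RPKM + 1) by limma 3.58.1 in R 4.3.3 (two-sided, moderated with a variance trend), as deposited and after upper-quartile scaling, adjusting by Benjamini-Hochberg over all genes tested at an adjusted p under 0.05. Differences between stages were differences of these log2 fold changes, adjusted over the genes tested at both stages. Alternatives were 1 scaling alone, median-of-ratios scaling, no filter, a pseudocount of 0.1, no trend, a log2 fold change minimum of 0.5 in size, a replicate block and each library left out. The members, lists and tests were chosen with earlier results of these data known. Values per library are given for all members that passed at any stage, those at P0, Mcm6 and Tyms, and for some that did not pass. Of each other list, up to 4 genes per stage by smallest p are named. Further genes were named after their values were seen, among them Hells, Asf1a, Rb1, Hba-a2, Hbb-bs, Lce3e and Lce3f. Promoters are from RefSeq, exon overlaps from GENCODE M21.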

Additional observations from a re-analysis of the deposited data

Results flagged for a closer look

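For 34 differences, the effect of genotype differed between stages by a test of the difference itself. All are log2 fold changes of DKO against WT after upper-quartile scaling, the later stage minus the earlier. Cdc45, Gins3 and E2f2 entered the P5 test through WT libraries only, so a difference there was built in. Between P5 and E17 the helicase subunits differed by -0.54 for Mcm2, -0.69 for Mcm3, -0.29 for Mcm4, -0.80 for Mcm5, -0.47 for Mcm6 and -0.46 for Mcm7. The genes of helicase activation differed by -0.91 for Cdc45, -0.53 for Gins1, -0.47 for Gins2, -0.33 for Gins3 and -0.51 for Gins4. Primase and the clamp with its loader differed by -0.36 for Prim1, -0.48 for Pcna, -0.57 for Rfc2, -0.29 for Rfc3, -0.47 for Rfc4 and -0.42 for Rfc5. The proteins of single-stranded DNA and the lagging strand differed by -0.47 for Rpa1, -0.41 for Rpa2, -0.46 for Fen1 and -0.59 for Lig1. Those of nucleotide supply differed by -0.48 for Rrm1, -0.53 for Rrm2, -0.42 for Tyms and -0.48 for Tk1, and the remaining 3 by -0.86 for Uhrf1, -0.65 for Slbp and -0.67 for E2f2.

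Gins1, Fen1, Rrm1, Mcm5 and Tyms, which rose at E17, are among these, and Rrm1 and Mcm5 are also among those that fell at P5. Leaving out 1 library at a time took the adjusted p past 0.05 for 4 genes, with the direction kept. For Mcm4 this held without WT replicate 3 at E17, or DKO replicate 2, DKO replicate 3 or WT replicate 3 at P5, at -0.28 to -0.25. For Prim1 it held without DKO replicate 1, DKO replicate 3 or WT replicate 2 at P5, at -0.34 to -0.25, and for Gins3 and Rfc3 without several libraries, at -0.33 to -0.27 for Gins3 and -0.31 to -0.21 for Rfc3.

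Between P0 and E17, genotype effects differed by -0.86 for Mcm3, -0.76 for Mcm6, -0.58 for Prim1 and -0.40 for Prim2. Between P5 and P0 they differed by -0.52 for Rpa1 and 0.28 for Mcm6. Groups of 3 libraries are too small to test single libraries as outliers.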

How the results depend on the processing

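The members' log2 fold changes were compared under 11 alternatives each. Of these values, 434 of 462 at E17, 54 of 55 at P0 and 405 of 418 at P5 kept their side of the threshold. No gene that passed turned its direction. Some genes that did not pass changed sign, as did Chaf1b at P5, which ran from -0.14 to 0.12. The count of 5 genes that rose at E17 was 39 as deposited alone, 1 with no filter, 3 without trend, 0 with a log2 fold change minimum of 0.5 in size, and 0 to 4 when 1 library was left out; 1 gene, Ccne1, was lower with upper-quartile scaling alone. The 24 genes that fell at P5 became 8 with the fold change minimum, 23 with median-of-ratios scaling (all among the 24), and 22 to 24 with 1 library left out. Between P5 and P0, the 1 gene above 0 became 0 as deposited and 1 to 2 with 1 library left out. The cause was not tested, other than that a minimum on the fold change can only remove calls. The replicate numbers were checked for pairing by correlating deviations of same-numbered DKO and WT libraries. The correlations were -0.011, 0.222 and -0.015 at E17, -0.158, 0.269 and -0.093 at P0 and -0.22, -0.073 and 0.047 at P5. Between differently numbered libraries, the E17 correlations lay between -0.188 and 0.208, those of P0 between -0.418 and 0.524, those of P5 between -0.159 and 0.248. Of the same-numbered values, only 0.222 at E17 and -0.22 at P5 lay outside these ranges. With groups of 3 libraries, such correlations cannot decide whether the numbers pair the libraries. With the replicate block 2 genes rose at E17, 24 fell at P5, 4 fell at P0, 27 lay below 0 between P5 and E17, and 2 above 0 between P5 and P0. Depth was lowest at P5, where 1 read on 1 kb is 0.0325 to 0.0597 RPKM and 4 members were too low to be tested.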

Other observations

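Of the 17 members tested at P5 that have several transcripts, the share of a gene's RPKM carried by its most abundant transcript was lower in every DKO library than in any WT library for 5 and higher for 1. Over all 5711 such genes tested, 12.9% were lower and 9.54% higher. The share was 36.2 to 41.2% in DKO and 50.7 to 77.1% in WT libraries for Mcm7, and 21.4 to 28.1% in DKO and 39.7 to 55.8% in WT libraries for Uhrf1. For Slbp it was 84.3 to 94.0% in DKO and 96.1 to 98.8% in WT libraries, for Lig1 88.7 to 93.7% in DKO and 95.9 to 99.1% in WT libraries, and for Rpa1 85.7 to 95.0% in DKO and 95.9 to 97.4% in WT libraries. For Cdc45 it was higher in DKO, at 89.2 to 89.5% against 52.6 to 70.3% in WT libraries. Cdc45 was at 0.331 to 0.646 RPKM in DKO and was tested through WT libraries only, so its DKO shares rest on few reads. At E17, of 41 members, 8 were higher in DKO (13.1% of 12016 genes) and 1 lower (4.49%). Among the higher were Mcm10, at 55.5 to 60.2% in DKO and 45.0 to 47.2% in WT libraries, and E2f1, at 82.5 to 84.9% in DKO and 77.4 to 78.8% in WT libraries. At P0, 2 of 5 were lower (11.4% of 1850 genes). How reads were divided between transcripts is not given in the sources used here, and these shares were looked at after the gene sums were known. The E17 table also lists the pseudogenes Pcna-ps2 and Tyms-ps, near copies of Pcna and Tyms; how reads were shared with them was not tested, and the values of both genes at E17 are uncertain to that extent.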
